A study of Mus musculus with 3 samples.

Results

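The acid-secretion and enzyme genes of bone resorption were followed in apoptotic bodies (ABs), the membrane-bound fragments that dying cells shed. The set holds Acp5, Car2, Clcn7, Ostm1, Slc4a2, Snx10 and Plekhm1. Members were found by matching each transcript of the mRNA table to its gene symbol in GENCODE release M21, and the reads of all transcripts of a gene were summed. All 7 members had listed transcripts, 34 in total, among 56651 transcripts and 15844 genes. Every member had at least 20 reads over the libraries together, as did 12702 genes.

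The study sequenced 3 libraries, 1 each of ABs from bone marrow macrophages (BMM-ABs), preosteoclasts (pOC-ABs) and mature osteoclasts (mOC-ABs), cultured from marrow of 11-week-old C57BL/6 mice. BMMs had grown in M-CSF at 50 ng/mL with no RANKL. Per the labels, pOCs then received RANKL at 100 ng/mL with M-CSF at 30 ng/mL for 24 h and mOCs received the same for at least 72 h, and alendronate at 500 μM for 12 h induced AB formation in all groups. The study's methods instead give M-CSF at 50 ng/mL, 96 h for mOCs, and staurosporine at 0.5 μM for 3 h as the inducer. How many mice stood behind a library is not given in the sources used here. Where 3 values stand in a row they belong first to BMM-ABs, then to pOC-ABs and last to mOC-ABs. The sample titles name the cells, whereas the series design and the methods name their ABs, and the libraries are called ABs here. With 1 library per group there is no replicate check on any difference, and the intervals given are exact 95% intervals that cover counting error only.

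Osteoclasts dissolve bone mineral by acidifying a sealed pit under the ruffled border and digest the exposed matrix with secreted enzymes. Carbonic anhydrase makes protons and bicarbonate from water and carbon dioxide, the proton pump moves the protons into the pit, chloride follows through an exchanger in the same membrane, and a bicarbonate exchanger on the opposite side of the cell returns the pH of the cytoplasm. The ruffled border forms when lysosome-like vesicles fuse with the plasma membrane, so trafficking proteins belong to the same machinery. Loss of most of these genes causes osteopetrosis, a disease of bone that is not resorbed.

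The mRNA table held 9100082, 7387317 and 7705592 reads. Levels are given as counts per 1000000 reads of that table (CPM), on which scale 3 reads are 0.330, 0.406 and 0.389. Of 9 osteoclast markers 8 were measured, with summed levels of 335, 541 and 1591 CPM, and Calcr was not analysed here. The 7 of them with at least 20 reads were all past 2-fold higher in mOC-ABs than in BMM-ABs, beside 4.16% of all genes. In pOC-ABs 3 were past 2-fold higher than in BMM-ABs, beside 4.87% of all genes. Of those 3, Mmp9 had 8 reads in BMM-ABs and 17 in pOC-ABs (interval of the ratio 1.07 to 7.01), and Oscar 0 and 7. Itgb3, an integrin subunit of osteoclasts, had 6, 3 and 0 reads, against the label of the mOC-AB library. The 7 macrophage markers summed to 5657, 2691 and 1775 CPM, with Lyz2 at 3170, 1334 and 411. Of the 6 with at least 20 reads, 2 were past 2-fold lower in pOC-ABs than in BMM-ABs and 5 in mOC-ABs. The shares of all genes past 2-fold lower were 6.07% and 8.99%. Cd68 was at 729, 649 and 656 CPM. The measured markers of each of the erythroid, B cell, T cell and stromal lists held at most 11 reads per library, and the neutrophil markers were not analysed here. The 3 endothelial markers held 23, 12 and 47 reads, of which Kdr had 15, 8 and 38. The summed level of the osteoclast markers ascended and that of the macrophage markers descended across the libraries in which the members were compared, but not that of each marker: Csf1r, at 1085, 357 and 506 CPM, was lowest in pOC-ABs. Their part in the results was not tested.

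Acp5, Clcn7 and Snx10 were listed with transcripts that start at different sites, and sequences at the sites of Acp5 and Clcn7 are shown because the reads assigned to these transcripts differed between the ABs. The windows are the 250 bases before a RefSeq start site (GRCm38.p6), printed 5′ to 3′ on the strand of the gene. They were searched on both strands for the M-box TCATGTG, a sequence bound by the MITF family, for the CLEAR core TCACGTG of lysosomal genes, and for the AP-1 sequence TGANTCA. RefSeq windows were found for 6 of the 7 members, 12 in all, and Car2 was not matched. The M-box occurred in 3.25%, the CLEAR core in 3.13% and the AP-1 sequence in 6.75% of 32851 mouse windows of this length. Capitals mark the matches. A match is a description of the letters and not evidence of binding.
Acp5, chr9:22131866-22132115, minus strand, 34 bases from the start of Acp5-206: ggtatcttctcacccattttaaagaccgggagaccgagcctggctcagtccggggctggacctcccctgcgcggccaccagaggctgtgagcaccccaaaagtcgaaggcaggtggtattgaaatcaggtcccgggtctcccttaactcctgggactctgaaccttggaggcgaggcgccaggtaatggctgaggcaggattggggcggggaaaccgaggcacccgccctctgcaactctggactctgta
Acp5, chr9:22130599-22130848, minus strand, at the start of Acp5-202: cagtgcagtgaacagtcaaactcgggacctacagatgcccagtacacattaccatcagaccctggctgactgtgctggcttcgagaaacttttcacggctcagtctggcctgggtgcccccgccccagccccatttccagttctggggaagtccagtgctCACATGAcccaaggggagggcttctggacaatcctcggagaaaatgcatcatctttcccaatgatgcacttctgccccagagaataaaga
Clcn7, chr17:25133141-25133390, plus strand, at the start of Clcn7-201: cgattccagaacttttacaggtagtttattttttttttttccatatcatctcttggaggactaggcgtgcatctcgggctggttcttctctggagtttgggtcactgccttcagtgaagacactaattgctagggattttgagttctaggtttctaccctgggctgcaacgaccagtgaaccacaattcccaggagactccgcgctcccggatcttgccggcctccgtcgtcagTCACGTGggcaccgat
Clcn7, chr17:25136381-25136630, plus strand, 9 bases from the start of Clcn7-204: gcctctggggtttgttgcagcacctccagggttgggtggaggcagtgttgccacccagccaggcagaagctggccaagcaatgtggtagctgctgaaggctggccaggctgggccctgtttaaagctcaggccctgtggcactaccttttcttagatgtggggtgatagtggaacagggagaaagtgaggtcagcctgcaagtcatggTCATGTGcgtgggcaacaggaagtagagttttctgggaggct
The upstream Acp5 window held none of the 3 motifs, and the window before Acp5-202 held an M-box that began 90 bases before the start site. The window before Clcn7-201 held a CLEAR core that began 16 bases before the start. The window near Clcn7-204 held an M-box that began 42 bases before its RefSeq start site. That site lies 9 bases downstream of the start of Clcn7-204, so the last 9 bases of the window lay within the transcript. A Snx10 window held the AP-1 sequence, 98 bases before its RefSeq start site, which lies 102 bases downstream of the start of Snx10-206. That match thus lay within the first exon of Snx10-206 and of Snx10-201. In all, 8 windows held none of these letters, among them the Acp5 window near Acp5-206 and those of Ostm1, Slc4a2 and Plekhm1.

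The 2 main Clcn7 transcripts also begin their proteins differently. Their first coding exons (GRCm38, GENCODE M21, plus strand) are shown with the start codon in capitals.
Clcn7-201, chr17:25133477-25133614, 138 bases: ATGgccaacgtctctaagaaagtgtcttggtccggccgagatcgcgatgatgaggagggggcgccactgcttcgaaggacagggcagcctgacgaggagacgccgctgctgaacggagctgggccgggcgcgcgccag
Clcn7-204, chr17:25136686-25136763, 78 bases: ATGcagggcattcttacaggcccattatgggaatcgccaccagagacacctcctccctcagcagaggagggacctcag
All later coding exons were shared, and the coding sequences were 2409 and 2349 bases long.

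Acp5 encodes tartrate-resistant acid phosphatase (TRAP), the secreted enzyme by which osteoclasts are commonly stained. The gene lies at chr9:22126727-22135711 on the minus strand (GRCm38). It held 88, 292 and 2157 reads, which is 9.67 (interval 7.76 to 11.9), 39.5 (35.1 to 44.3) and 279.9 (268.2 to 292.0) CPM. The mOC-AB value was the highest and the intervals of the libraries did not overlap. Acp5 was 4.09-fold higher in pOC-ABs than in BMM-ABs (interval 3.21 to 5.25). In mOC-ABs it was 28.9-fold higher than in BMM-ABs (23.4 to 36.2) and 7.08-fold higher than in pOC-ABs (6.26 to 8.03). By its ratio between mOC-ABs and BMM-ABs it stood at place 42 from the highest of 12698 genes, and at place 133 of 12693 between pOC-ABs and BMM-ABs. These are levels of RNA in bulk ABs, in which fewer cells or ABs of a kind and less RNA in each cannot be told apart.

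Per length, as FPKM summed over the transcripts of the gene, Acp5 was listed at 6.76, 29.1 and 195. Its place among the 15844 genes by FPKM moved from 9000 to 3455 and then to 493.

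Of the 3 other acid phosphatases measured, Acp1, Acp2 and Acp6, Acp1 was 2.15-fold higher in pOC-ABs than in BMM-ABs, and the others were within 2-fold there. None of them was past 2-fold in mOC-ABs against either library, where Acp6, a lysophosphatidic acid phosphatase, was 0.904 times its BMM-AB level and Acp2, the lysosomal acid phosphatase, 0.712 times.

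Car2 encodes the cytosolic carbonic anhydrase that supplies the protons for acid secretion, and lies at chr3:14886273-14900770 on the plus strand. It held 1473, 1911 and 5835 reads, or 162, 259 and 757 CPM, with the highest value in mOC-ABs. The level in pOC-ABs was 1.60-fold that in BMM-ABs (interval 1.49 to 1.71), within 2-fold. In mOC-ABs Car2 was 4.68-fold higher than in BMM-ABs (4.42 to 4.96) and 2.93-fold higher than in pOC-ABs (2.78 to 3.08). It was the member with the highest FPKM in every library, at 94.8, 148 and 429, and stood at place 248 of all genes in mOC-ABs. The FPKM of Acp5 was 0.0712, 0.196 and 0.454 times that of Car2, so the gap between them narrowed across the libraries. Car2-201 carried 96.6%, 98.4% and 99.1% of the reads of the gene.

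Of 15 other carbonic anhydrases in the list, 8 were measured and 6 had at least 20 reads. None of these 6 was past 2-fold in pOC-ABs or mOC-ABs against BMM-ABs, and 1, Car7, was past 2-fold lower in mOC-ABs than in pOC-ABs, from 8 and 18 reads and with an interval that included no difference (0.160 to 1.03). Their median log2 ratio was 0.26 in pOC-ABs and -0.24 in mOC-ABs against BMM-ABs, beside medians over all genes of -0.021 and -0.054. Car13, a cytosolic carbonic anhydrase like Car2, was 0.918 times its BMM-AB level in mOC-ABs, and Car5b, a mitochondrial enzyme, 0.875 times.

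Slc4a2 encodes the anion exchanger that sends bicarbonate out of the osteoclast in return for chloride. The gene lies at chr5:24423837-24440950 on the plus strand and held 832, 543 and 1206 reads. These were 91.4 (interval 85.3 to 97.9), 73.5 (67.5 to 80.0) and 157 (148 to 166) CPM, with the lowest value in pOC-ABs. The level in mOC-ABs was 2.13-fold that in pOC-ABs (1.92 to 2.36) and 1.71-fold that in BMM-ABs (1.57 to 1.87), and that in pOC-ABs was 0.804 times that in BMM-ABs (0.720 to 0.897). From the summed FPKM of 34.7, 28.6 and 49.4 the log2 ratio between mOC-ABs and pOC-ABs was 0.79 in place of 1.09, which is within 2-fold. Slc4a2-201, which carried 86.2% to 91.0% of the reads, had 726, 468 and 1098 reads and was 2.25-fold higher in mOC-ABs than in pOC-ABs. Reads of Slc4a2 for each read of Car2 numbered 0.565, 0.284 and 0.207, lowest in mOC-ABs.

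The 3' end of Slc4a2 shares 1141 exon bases with Fastk, a gene on the opposite strand that held 616, 299 and 453 reads. Whether the counting used strand is not given in the sources used here, so reads of the shared bases cannot be told apart. Acp5, Ostm1 and Plekhm1 likewise share 137, 410 and 334 exon bases with annotated genes on the opposite strand. Of the other SLC4 transporters, Slc4a7, a sodium bicarbonate cotransporter, held the most reads, at 607, 347 and 223, and was 0.434 times its BMM-AB level in mOC-ABs. Of the 3 that had at least 20 reads, 2 (Slc4a8 and Slc4a11) were past 2-fold lower in pOC-ABs than in BMM-ABs, beside 6.07% of all genes. They had 3 and 4 reads in pOC-ABs against 9 and 16 in BMM-ABs, and the interval of Slc4a8 (0.0715 to 1.65) included no difference. In mOC-ABs 1 (Slc4a7) was past 2-fold lower than in BMM-ABs, beside 8.99% of all genes. Slc4a8 and Slc4a11 were past 2-fold higher in mOC-ABs than in pOC-ABs, beside 3.51% of all genes. These 2 ratios came from few reads, with intervals that included no difference (0.718 to 16.5 and 0.602 to 9.59).

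Between pOC-ABs and BMM-ABs, 1 member (Acp5) was past 2-fold, beside 10.9% of all genes in either direction. Between mOC-ABs and BMM-ABs, 2 members (Acp5 and Car2) were past 2-fold, beside 13.2% of all genes. Between mOC-ABs and pOC-ABs there were 3 (Acp5, Car2 and Slc4a2), beside 10.3%. All of these were higher in the later stage, a direction taken by 4.87%, 4.16% and 3.51% of all genes in the same comparisons, and 0 members were past 2-fold lower, beside 6.07%, 8.99% and 6.84% of all genes. With no filter on low counts, the shares of all genes past 2-fold in either direction were 19.3%, 21.5% and 19.2%, and the counts of members did not move. The comparisons share libraries and are not independent of each other.

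**Figure D1:**
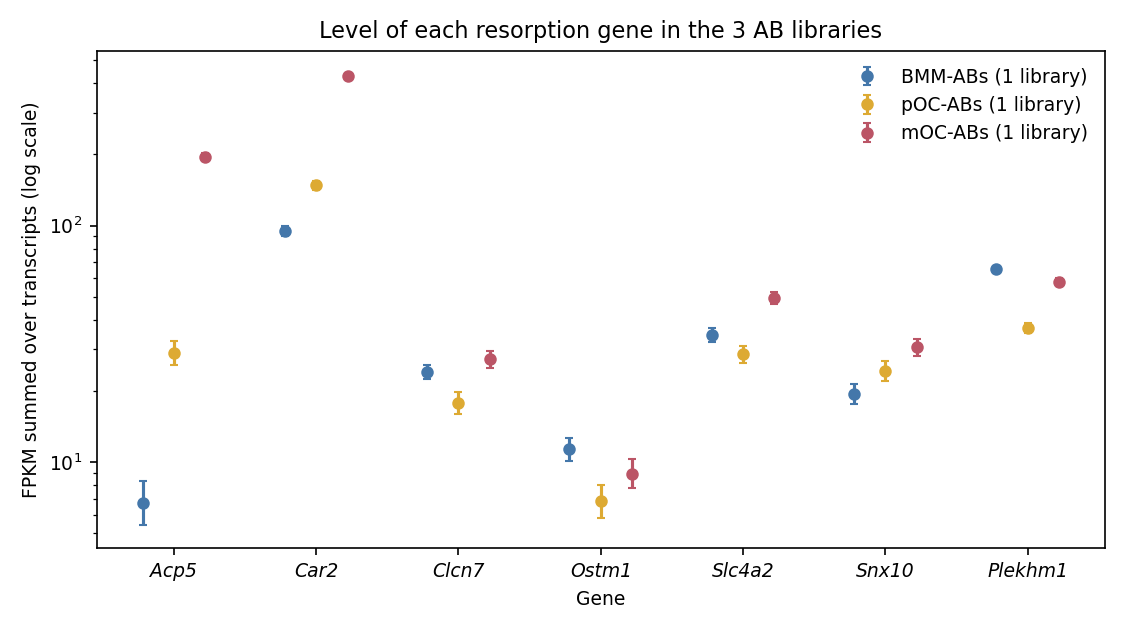
Level of each resorption gene in the 3 AB libraries as FPKM summed over its transcripts (log axis), 1 library per point, with bars for the exact 95% counting interval scaled to FPKM. Acp5 goes from 6.76 to 195 and Car2 from 94.8 to 429, whereas pOC-ABs hold the lowest value of Clcn7, Ostm1, Slc4a2 and Plekhm1.

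**Figure D2:**
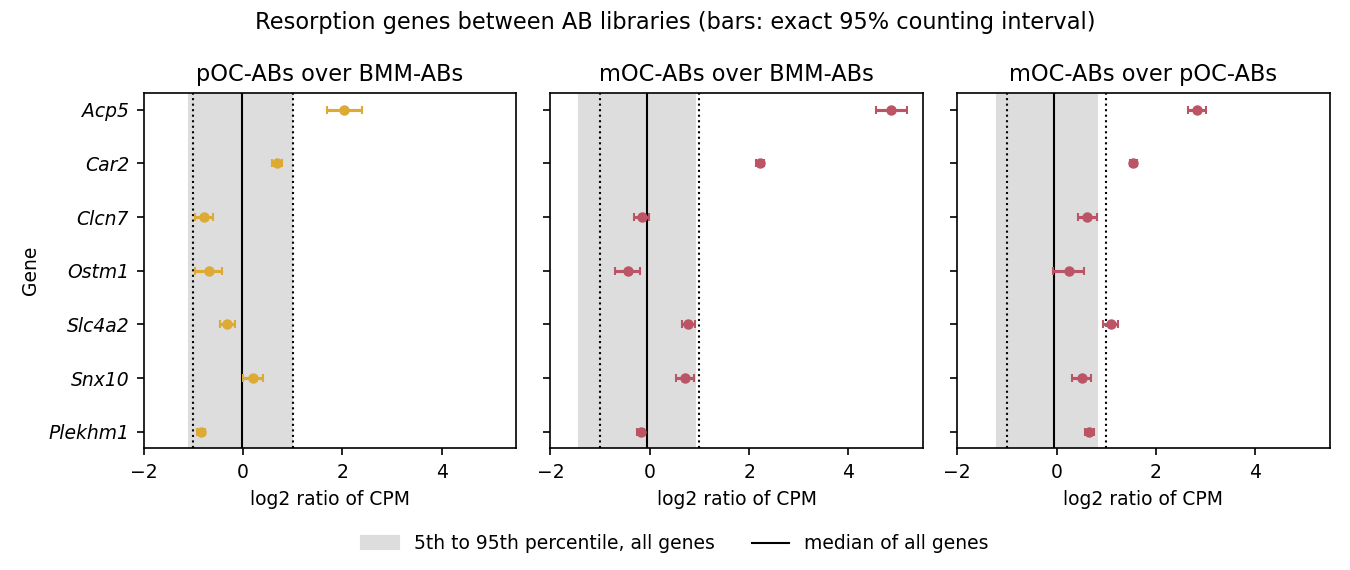
The log2 ratio of CPM of each resorption gene in each comparison, with the exact 95% counting interval, beside the 5th to 95th percentile (grey) and the median (line) of all genes; dotted lines mark 2-fold. Acp5 lies outside the grey range in all comparisons and Ostm1 includes 0 in mOC-ABs over pOC-ABs.

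Clcn7 encodes the chloride and proton exchanger of lysosomes and the ruffled border, and Ostm1 its beta subunit, a membrane protein on which the exchanger depends. Clcn7 lies at chr17:25133391-25162104 and Ostm1 at chr10:42583822-42702459, both on the plus strand. Clcn7 held 777, 366 and 587 reads, which is 85.4 (interval 79.5 to 91.6), 49.5 (44.6 to 54.9) and 76.2 (70.1 to 82.6) CPM. The pOC-AB value was the lowest and its interval lay apart from the others, while those of BMM-ABs and mOC-ABs overlapped.

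Clcn7 in pOC-ABs was 0.580 times its BMM-AB level (interval 0.511 to 0.658). In mOC-ABs it was 1.54-fold its pOC-AB level (1.35 to 1.76) and 0.892 times its BMM-AB level (0.8001 to 0.994). The ratios against BMM-ABs depended on the unit. On the log2 scale, that of pOC-ABs was -0.79 from reads (interval -0.97 to -0.60). From the summed FPKM of 24.1 and 17.8 it was -0.44, outside that interval. The ratio of mOC-ABs against BMM-ABs was -0.16 from reads and 0.18 from the summed FPKM of 24.1 and 27.3. Clcn7-205, a short retained-intron transcript of 584 bases, had 9 reads and an FPKM of 1.69 in BMM-ABs, and 34 reads and an FPKM of 7.56 in mOC-ABs.

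Ostm1 held 322, 162 and 200 reads, or 35.4 (31.6 to 39.5), 21.9 (18.7 to 25.6) and 26.0 (22.5 to 29.8) CPM. The BMM-AB value was the highest, and the intervals of pOC-ABs and mOC-ABs overlapped. Ostm1 in pOC-ABs was 0.620 times (0.510 to 0.751) and in mOC-ABs 0.734 times (0.612 to 0.878) its BMM-AB level. The ratio of 1.18 between mOC-ABs and pOC-ABs had an interval of 0.957 to 1.47 and was not distinguishable from no difference at this depth. Ostm1 had the lowest FPKM of the members in pOC-ABs and mOC-ABs, at 6.84 and 8.96.

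For each Ostm1 read there were 2.41 (interval 2.12 to 2.76), 2.26 (1.87 to 2.74) and 2.94 (2.50 to 3.46) Clcn7 reads, with overlapping intervals. In FPKM, which counts per length, the ratio was 2.12, 2.60 and 3.04. Its intervals are those of the read ratio scaled to FPKM. They carry no error from how reads were shared between transcripts of different length. Scaled so, those of BMM-ABs (1.86 to 2.43) and mOC-ABs (2.58 to 3.59) did not overlap, whereas those of the read ratio did. The short transcript Clcn7-205 held 7.02% of the summed Clcn7 FPKM in BMM-ABs and 27.7% in mOC-ABs.

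Of the 5 other CLC channels and exchangers measured, 3 (Clcn4, Clcn5 and Clcn6) were past 2-fold lower in pOC-ABs than in BMM-ABs and 2 (Clcn2 and Clcn6) in mOC-ABs. The shares of all genes past 2-fold lower were 6.07% and 8.99%. Clcn2 had 26 reads in BMM-ABs and 9 in mOC-ABs (interval of the ratio 0.169 to 0.900). The median log2 ratios of the 5 were -1.03 and -0.96, beside -0.021 and -0.054 over all genes, and 0 were past 2-fold higher in any comparison. Clcn3, an endosomal exchanger, held 1603, 655 and 697 reads, and Clcn6 was 0.298 and 0.459 times its BMM-AB level. Between mOC-ABs and pOC-ABs, where Clcn7 was 1.54-fold higher, Clcn4 was 1.56-fold, Clcn6 1.54-fold and Clcn3 1.02-fold, while Clcn2, with 21 and 9 reads, was past 2-fold lower at 0.411 times its pOC-AB level (interval 0.166 to 0.936).

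Snx10 encodes a sorting nexin with a PX domain, which binds membrane phosphoinositides, and is needed for the ruffled border. Plekhm1 encodes an adaptor of late endosomes and lysosomes that binds Rab7. Snx10 lies at chr6:51523901-51590679 on the plus strand and Plekhm1 at chr11:103364275-103412687 on the minus strand. Snx10 held 420, 393 and 582 reads, or 46.2 (interval 41.8 to 50.8), 53.2 (48.1 to 58.7) and 75.5 (69.5 to 81.9) CPM. Its mOC-AB value was the highest, and those of BMM-ABs and pOC-ABs had overlapping intervals. Snx10 in pOC-ABs was 1.15-fold its BMM-AB level (1.002 to 1.33). In mOC-ABs it was 1.64-fold its BMM-AB level (1.44 to 1.86) and 1.42-fold its pOC-AB level (1.25 to 1.62). Its summed FPKM was 19.5, 24.4 and 30.7.

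Plekhm1 held 3518, 1594 and 2622 reads, or 387, 216 and 340.3 CPM. The pOC-AB value was the lowest, and no intervals overlapped. Plekhm1 in pOC-ABs was 0.558 times (interval 0.526 to 0.592) and in mOC-ABs 0.880 times (0.837 to 0.926) its BMM-AB level, and it was 1.58-fold higher in mOC-ABs than in pOC-ABs (1.48 to 1.68). With totals of the mRNA and lncRNA tables together, which move all log2 ratios of pOC-ABs against BMM-ABs by -0.20, it was past 2-fold lower in pOC-ABs (log2 ratio -1.04). Its FPKM of 65.5, 37.0 and 57.9 was the second highest of the members in BMM-ABs and pOC-ABs and the third highest in mOC-ABs, and Plekhm1-201 carried 98.6% to 99.3% of its reads. For each Plekhm1 read there were 0.119, 0.247 and 0.222 Snx10 reads.

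Among 4 other small PX-domain sorting nexins and 6 relatives and partners of Plekhm1, none was past 2-fold in any comparison, with median log2 ratios of -0.20 and -0.11 for the nexins and -0.056 and -0.068 for the partners in pOC-ABs and mOC-ABs against BMM-ABs. Snx3, an early endosomal nexin, came nearest, with 794, 1205 and 1286 reads and 1.87-fold and 1.91-fold its BMM-AB level in pOC-ABs and mOC-ABs. Rab7, the GTPase that Plekhm1 binds, held 2638, 2270 and 2695 reads and was 1.06-fold and 1.21-fold its BMM-AB level.

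By FPKM the members stood in the order Car2, Plekhm1, Slc4a2, Clcn7, Snx10, Ostm1 and Acp5 in BMM-ABs. In pOC-ABs Acp5 (29.1), Slc4a2 (28.6) and Snx10 (24.4) followed Car2 and Plekhm1. The intervals of Acp5, Slc4a2 and Snx10 all overlapped each other. In mOC-ABs the order was Car2, Acp5, Plekhm1, Slc4a2, Snx10, Clcn7 and Ostm1, with overlapping intervals for Snx10 (30.7) and Clcn7 (27.3). Together the members held 7430, 5261 and 13189 reads, or 816, 712 and 1712 CPM. Acp5 and Car2 made up 21.01%, 41.9% and 60.6% of these reads. The other 5 members summed to 645, 414 and 674 CPM, so the higher sum of mOC-ABs lay mostly in Acp5 and Car2.

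The transcripts of Acp5 shared 981 coding bases and differed in where their untranslated first exons began. The first exon of Acp5-202 lay within a later exon of Acp5-206. Of the 3 transcripts with at least 10% of the reads in any library, Acp5-206 began most upstream, Acp5-204 178 bases further in and Acp5-202 1233 bases further in. In BMM-ABs the reads were assigned mostly to Acp5-206 (44 reads, 50.0%) and Acp5-204 (42 reads, 47.7%), with 1 read for Acp5-202. In pOC-ABs Acp5-202 had 261 of the 292 reads (89.4%), Acp5-206 had 30 and Acp5-204 had 0. In mOC-ABs Acp5-206 had 1376 reads (63.8%), Acp5-204 had 743 (34.4%) and Acp5-202 had 21 (0.974%). The excess of Acp5 reads in pOC-ABs over BMM-ABs was thus assigned to a different transcript from that in mOC-ABs.

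Acp5-206 in pOC-ABs was 0.840 times its BMM-AB level (interval 0.510 to 1.37), and in mOC-ABs it was 36.9-fold higher than in BMM-ABs (27.4 to 51.1). With a floor of 3 reads taken for the 0 reads of pOC-ABs, Acp5-204 in BMM-ABs was 11.4-fold its pOC-AB level. That is 0.0880 as pOC-ABs against BMM-ABs. In mOC-ABs Acp5-204 was 237-fold its pOC-AB level with the same floor. The exact limits, which also cover the counting error of the larger count, were weaker. They reached 0.113 for pOC-ABs against BMM-ABs and 193 for mOC-ABs against pOC-ABs. The ratio of Acp5-202 between pOC-ABs and BMM-ABs was 322 (57.2 to 12747) from 1 read in BMM-ABs, and in mOC-ABs it was 0.0771 times its pOC-AB level (0.0469 to 0.120). Acp5-202 has 7 bases (0.519% of its length), at its 3' end, that are in neither Acp5-204 nor Acp5-206, against 153 bases for Acp5-204 and 105 for Acp5-206. How the authors shared reads between transcripts is not given in the sources used here, and the assignment was not tested beyond these values.

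**Figure D3:**
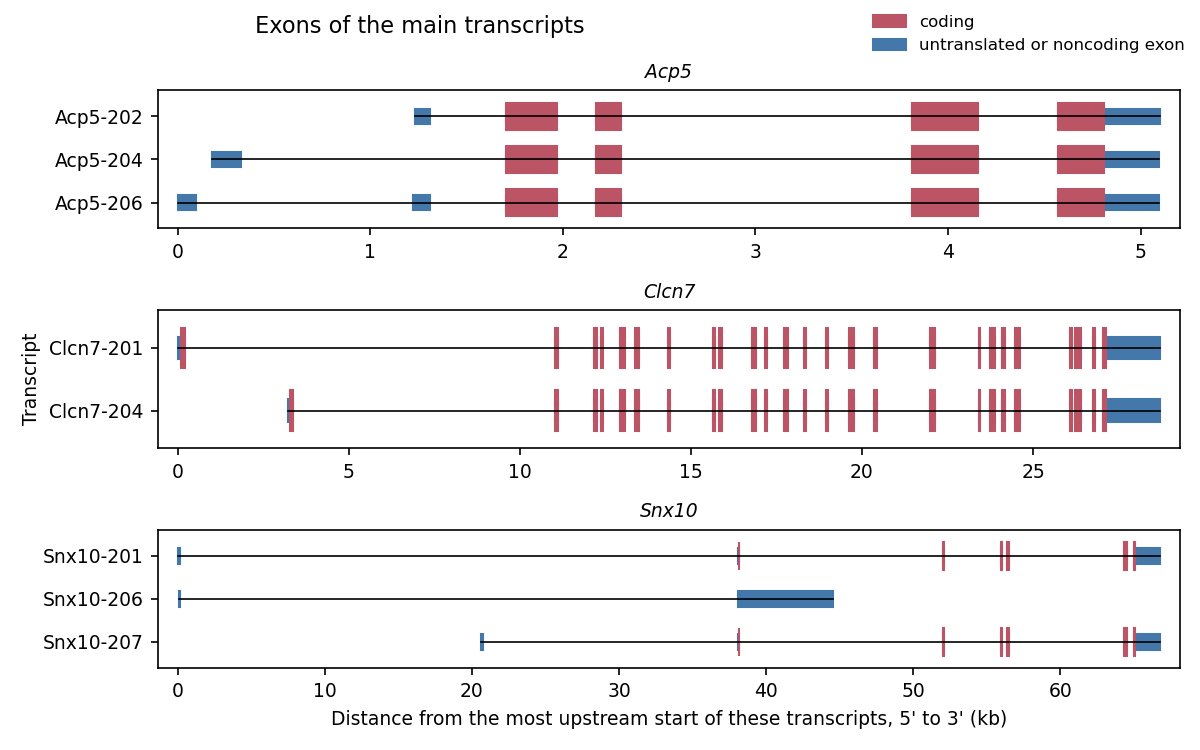
Exons of the main transcripts of Acp5, Clcn7 and Snx10, with the distance in kb from the most upstream start among them on the horizontal axis; tall red blocks are coding and low blue blocks are untranslated or noncoding. The transcripts of a gene differ at their 5′ ends, by 1233 bases for Acp5-202, 3231 for Clcn7-204 and 20622 for Snx10-207, and Snx10-206 ends in a retained intron.

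**Figure D4:**
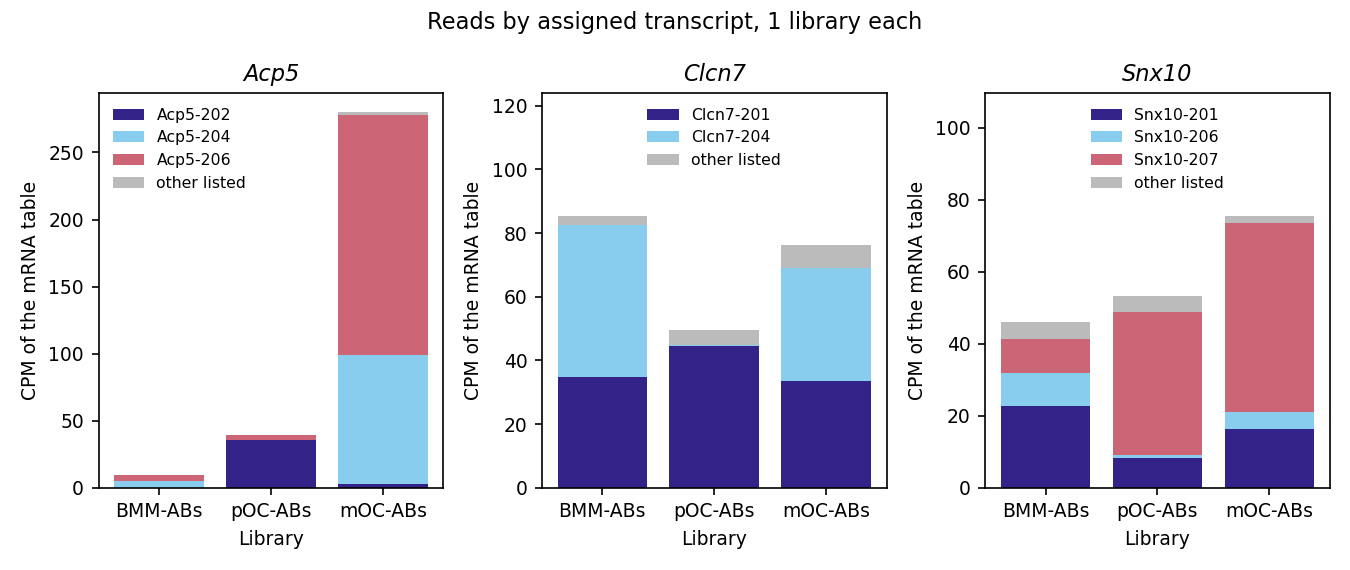
CPM of the mRNA table by assigned transcript for Acp5, Clcn7 and Snx10, stacked, 1 library per bar; each panel has its own scale. Acp5-202 fills 89.4% of the pOC-AB bar, Clcn7-204 is at 1 read in pOC-ABs, and Snx10-207 fills 74.3% of the pOC-AB bar.

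Clcn7 reads were split between Clcn7-201 and Clcn7-204, whose start lies 3231 bases downstream. Clcn7-201 had 316, 330 and 259 reads, or 34.7, 44.7 and 33.6 CPM. Clcn7-204 had 434, 1 and 274 reads, or 47.7, 0.135 and 35.6 CPM. The lower level of the gene in pOC-ABs was therefore in reads assigned to Clcn7-204, while Clcn7-201 was 1.29-fold its BMM-AB level (interval 1.10 to 1.51). The ratio of Clcn7-204 between pOC-ABs and BMM-ABs was 0.00284 (7.17e-05 to 0.0159), and between mOC-ABs and pOC-ABs it was 263 (46.8 to 10413). Clcn7-201 held 40.7%, 90.2% and 44.1% of the reads of the gene. Of their bases, 230 (5.65%) of Clcn7-201 and 142 (3.57%) of Clcn7-204 lay outside the other, mostly in the first exons, and the limit on how reads were shared holds here too.

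Snx10-201 and Snx10-207 share 603 coding bases, and Snx10-207 starts 20622 bases downstream at another untranslated exon. Snx10-201 had 208, 62 and 125 reads and Snx10-207 had 87, 292 and 405, so that Snx10-207 held 20.7%, 74.3% and 69.6% of the reads of the gene. Snx10-207 was 4.13-fold higher in pOC-ABs (interval 3.24 to 5.32) and 5.498-fold higher in mOC-ABs (4.35 to 7.01) than in BMM-ABs. Snx10-201 was 0.367 times (0.272 to 0.490) and 0.710 times (0.564 to 0.890) its BMM-AB level. The near-equal gene level of BMM-ABs and pOC-ABs, which counts all listed transcripts, thus covered opposite differences in reads assigned to Snx10-201 and Snx10-207. Only 90 bases (3.63%) of Snx10-201 and 127 (5.15%) of Snx10-207 lay outside the other main transcripts. The limit on how reads were shared holds here too. Snx10-202, which starts 20623 bases downstream of Snx10-201 and so beside Snx10-207, had 41, 26 and 13 reads, highest in BMM-ABs. Snx10-206, a retained-intron transcript that lacks most coding exons, had 81, 6 and 37 reads, or 19.3%, 1.53% and 6.36% of the gene. From protein-coding transcripts only, the log2 ratio of Snx10 between pOC-ABs and BMM-ABs was 0.49 in place of 0.20. That is outside its counting interval (0.0028 to 0.41). Between mOC-ABs and BMM-ABs the ratio was 0.92 in place of 0.71, also outside its interval (0.53 to 0.90).

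Car2, Ostm1, Slc4a2 and Plekhm1 had the same leading transcript in every library. Ostm1-201 had 222, 119 and 149 reads and the retained-intron transcript Ostm1-205 had 94, 42 and 44, which is 29.2%, 25.9% and 22% of the gene. Of the 34 listed transcripts, 13 held at least 10% of their gene in some library. The highest count among the others was 58 reads, for Slc4a2-209 in mOC-ABs.

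The genes nearest to each member in the pair of log2 ratios against BMM-ABs were sought among 9873 protein-coding genes. These had at least 100 reads over the libraries together and reads in every library, so genes without reads in BMM-ABs were left out. None of the genes searched lay within 0.5 of Acp5. The nearest were Rasd2 at a distance of 0.75 and Lpin3 at 0.82, with 3 and 6 reads in BMM-ABs. Car2 had 27 genes within that distance, and its nearest were Acy1 at 0.15, which held 239, 322 and 858 reads, and Zc3h11a at 0.25. Between 306 (Slc4a2) and 2071 (Ostm1) genes lay within 0.5 of each remaining member. Among their nearest were Mgat4b and Pde6d for Clcn7, Yeats2 and Scap for Ostm1, Edil3 for Slc4a2, Fam216a and Tomm5 for Snx10, and Ergic3 for Plekhm1, each at a distance of at most 0.0905. The distance rests on 3 libraries and shares the BMM-AB library in both ratios.

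Of 9 other osteopetrosis and matrix-degradation genes with at least 20 reads, 2 were past 2-fold higher in pOC-ABs and 3 in mOC-ABs than in BMM-ABs. The shares of all genes past 2-fold higher were 4.87% and 4.16%. None of the 9 was past 2-fold lower. Their median log2 ratios were -0.28 and 0.20. Atp6v0d2, a proton pump subunit of osteoclasts, held 187, 873 and 2338 reads and was 5.75-fold and 14.8-fold its BMM-AB level. Ctsk, the collagen-degrading protease cathepsin K, held 180, 171 and 1001 reads and was 1.17-fold (interval 0.944 to 1.451) and 6.57-fold (5.599 to 7.74) its BMM-AB level. In pOC-ABs, where Acp5 was 4.09-fold higher, Ctsk was thus not distinguishable from its BMM-AB level at this depth. Mmp9, a matrix metalloproteinase, held 8, 17 and 107 reads. Tcirg1, the proton pump subunit mutated in osteopetrosis, was 0.733 times its BMM-AB level in pOC-ABs and 0.923 times in mOC-ABs, and Fermt3 was 0.823 and 1.14 times. Across all 7 reference lists, 36 genes had at least 20 reads. Of these, 8 were past 2-fold between pOC-ABs and BMM-ABs, beside 10.9% of all genes in either direction. Between mOC-ABs and BMM-ABs there were 6, beside 13.2%, and between mOC-ABs and pOC-ABs 7, beside 10.3%.

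**Figure D5:**
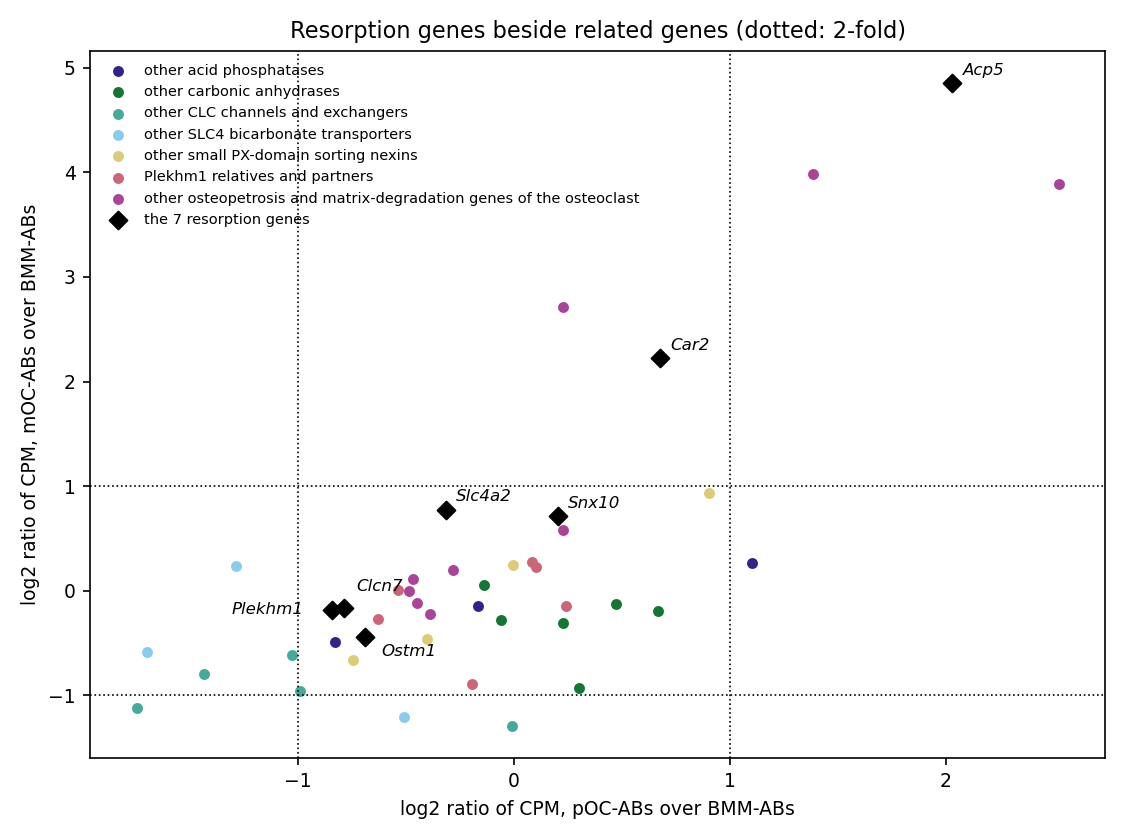
The log2 ratio of CPM of mOC-ABs over BMM-ABs against that of pOC-ABs over BMM-ABs for the 7 resorption genes (diamonds) and the tested genes of the reference lists (dots), with dotted lines at 2-fold. Acp5 and Car2 lie with Atp6v0d2, Mmp9 and Ctsk above the 2-fold line for mOC-ABs, and the other members lie within 2-fold on both axes.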

How the data were processed

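Total RNA of ABs was sequenced from 1 library per group on poly-A selected, paired-end libraries. For each transcript the authors deposited a count of reads and an FPKM, and the FPKM is that count over the length of the transcript and the summed counts of the mRNA table. The lncRNA table holds deposited counts per transcript, and the circRNA table deposited counts of back-splice junction reads. The submitters' processing notes name FastQC, HISAT2, StringTie and GRCm38 without versions. Whether strand was used is not given in the sources used here.

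Transcripts were matched to GENCODE M21, and 229 of 56651 transcripts, with 0.129% to 0.152% of the reads, were not matched and were left out of gene sums but kept in the totals. Counts were summed per gene, divided by the total of the mRNA table and compared as ratios, called past 2-fold. Genes with at least 20 reads over the 3 libraries were tested against that limit. Intervals of ratios are exact binomial (Clopper-Pearson) and intervals of levels exact Poisson, both at 95%, from PCR-amplified reads that are not independent molecules. An edgeR test of counts was not run because 1 library per group leaves no dispersion to estimate. The scripts were tested on simulated data with Python 3.11.15, numpy 2.4.6, pandas 2.3.3, scipy 1.17.1 and edgeR 4.0.16 (TMM factors only, R 4.3.3). Figures used matplotlib 3.10.9.

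Named genes were the 7 members, their transcripts with at least 10% of the reads of the gene in any library, the 2 nearest genes of each, and up to 4 genes with the most reads in each reference list. Some of the nearest genes are not reported here. Clcn2, Car7, Cd68, Csf1r, Ctsk, Mmp9, Oscar, Itgb3, Kdr and Fastk fall outside this rule and were named after their values were seen, as were the other transcripts of fewer reads. The members and lists were chosen with earlier results of these data known. Alternatives were other scalings, protein-coding transcripts only, summed FPKM with no pseudocount, 1 or 0.1, a limit of 1.5-fold, no filter on low counts, and added reads of overlapping lncRNAs.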

Additional observations from a re-analysis of the deposited data

Results flagged for a closer look

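Transcripts of the lncRNA table that overlap members, and that are outside the gene sums, held more than 3 reads in at least 1 library, the limit that a count of 0 allows. The transcript with the most reads was NONMMUT012233.2, which covers 2601 bases of the last exon of Plekhm1 and had 1102 reads in BMM-ABs, against 581 and 998 in the libraries of pOC-ABs and mOC-ABs. Its reads were lowest in pOC-ABs, like those of Plekhm1. Also at Plekhm1, ENSMUST00000130556, which belongs to the antisense gene Arhgap27os1, had 5, 8 and 9 reads.

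At Snx10, NONMMUT056918.2 had 59, 29 and 15 reads in the same order, and shares no exon bases with the listed Snx10 transcripts. Its reads were highest in BMM-ABs, where those of Snx10 were lowest in CPM. NONMMUT056916.2 had 9, 3 and 4 reads, and NONMMUT056917.2, which overlaps the intron kept by Snx10-206, had 4, 4 and 3. At Clcn7, NONMMUT028714.2 in the last exon had 1, 1 and 10 reads. Back-splice junctions of Plekhm1 had at most 3 reads in any library. Reads of these transcripts and of the members cannot be told apart over shared bases, and no explanation was tested.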

How the results depend on the processing

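Of 210 log2 ratios of members under 10 alternatives, 186 stayed inside the counting interval of the value reported, and no ratio past 2-fold took the other sign. The ratio of Clcn7 between mOC-ABs and BMM-ABs went from -0.16 to 0.18, 0.17 and 0.18 with FPKM summed with no pseudocount, 1 and 0.1. Between pOC-ABs and BMM-ABs, 1 member was past 2-fold, 2 with the totals of the mRNA and lncRNA tables together, and 5 with a limit of 1.5-fold. With that limit the count was 4 in place of 2 between mOC-ABs and BMM-ABs, and 5 in place of 3 between mOC-ABs and pOC-ABs. With summed FPKM, Slc4a2 was no longer past 2-fold between mOC-ABs and pOC-ABs (log2 0.77 to 0.79), which left 2 members. Scaling by both tables moved all log2 ratios by -0.20 between pOC-ABs and BMM-ABs, -0.10 between mOC-ABs and BMM-ABs and 0.099 between mOC-ABs and pOC-ABs, and each of the other scalings by at most 0.076. For the counts over the reference lists the only alternative run was median-of-ratios size factors. These left 8 genes past 2-fold between pOC-ABs and BMM-ABs, 6 between mOC-ABs and BMM-ABs and 7 between mOC-ABs and pOC-ABs. No paired analysis was possible because each group has 1 library and no test was run. Leaving out a library was not possible for the same reason. Depth limits Acp5 in BMM-ABs, with 88 reads, and Ostm1 in pOC-ABs, with 162, more than the other members, and it limits transcripts with 0 or 1 read, whose ratios are bounds or have wide intervals.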
